A study of Mus musculus with 6 samples.

Results

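The effect of a fibroblast coculture on mast cells of the Pla2g3+/+ genotype was measured on 2 of the 6 arrays of the series. The first held RNA of Pla2g3+/+ bone marrow-derived mast cells kept for 4 days on wild-type Swiss 3T3 fibroblasts, a standing cell line from mouse embryos, and the second held RNA of Pla2g3+/+ mast cells without fibroblasts. Of the 29596 genes on the array, 22607 were well above background on at least 1 of the pair and were compared. They were split by their level on the array without fibroblasts: 12622 lay above -3 and 9985 at or below it. A level is the log2 signal minus the 75th percentile of its array, so that a level of -3 stands for 12.5% of that percentile. A difference is always coculture minus alone, and a gene was counted as higher or lower from a 2-fold difference on.

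Bone marrow was cultured with interleukin-3 at 10 ng/ml to obtain the mast cells, and the coculture also received stem cell factor (SCF), the ligand of the receptor Kit, at 100 ng/ml. The labels do not say whether the cells alone received SCF, so fibroblast contact and SCF cannot be told apart. Each array carried a pool of 3 samples, and 1 array stood for each group, so there is no replicate check of any difference and no p-value is given. Mast cells were recovered either as cells that did not adhere after trypsin and replating or with beads against CD117, and the route used for these arrays is not stated. The other arrays held mast cells labelled Pla2g3-/- in coculture with wild-type fibroblasts and alone, and wild-type mast cells on Lpar1+/+ or Lpar1-/- fibroblasts, the last of which descend from a single CRISPR clone.

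Mast cells are tissue cells that store histamine, proteases and heparin in granules and release them when antigen crosslinks IgE on the receptor FcεRI. Cells grown in interleukin-3 are immature, and contact with fibroblasts together with SCF is known to move them toward the connective tissue type, which carries tryptases, chymases and receptors of the Mrgpr family. The design asks what that step does to the transcripts of these cells.

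The probes of 4 genes at the centre of this maturation are shown first, because the first 3 gave some of the largest differences and the last one did not pass 2-fold. They are tryptase alpha/beta 1 (Tpsab1, chromosome 17, 25480640 to 25480699), the receptors Mrgprb1 (chromosome 7, 55702712 to 55702771) and Mrgprb2 (chromosome 7, 55807084 to 55807143), and the chymase Cma1 (chromosome 14, 56561491 to 56562550), with positions on mm9 as the files give them. The Cma1 probe has 60 bases over a longer genomic span.
Tpsab1: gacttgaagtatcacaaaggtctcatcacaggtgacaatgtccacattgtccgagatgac
Mrgprb1: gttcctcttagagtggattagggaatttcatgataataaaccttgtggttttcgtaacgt
Mrgprb2: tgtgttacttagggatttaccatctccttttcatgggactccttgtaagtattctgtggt
Cma1: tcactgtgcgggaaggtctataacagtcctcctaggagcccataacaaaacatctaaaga
The longest run of bases shared by the probes of Mrgprb1 and Mrgprb2 was 7, and it was 6 between Tpsab1 and its paralog Tpsb2. These runs compare probes with each other. Whether a probe binds the transcript of the paralog was not tested. Exon and intron positions are not stated, since no mm9 annotation was used here.

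The 75th percentile of signal was 1469 in coculture and 1268 alone, and 74.4% and 70.7% of spots were well above background. Both cocultures of wild-type mast cells on wild-type fibroblasts, the Pla2g3+/+ coculture and the array with Lpar1+/+ fibroblasts, lay on 1 slide and were used to judge the error. Their differences had a standard deviation of 0.15 over 12613 genes above -3 alone, 95% of them lay within 0.29, and 0 genes (0%) were at least 2-fold higher and 2 (0.0159%) at least 2-fold lower. Whether these RNAs came from the same mast cells is not given, so the spread between cultures may be larger. Probes with 10 spots had a median standard deviation of 0.09 in coculture and 0.05 alone. The arrays with and without fibroblasts lay on different slides, so that slide and coculture cannot be told apart. Pla2g3 itself went against the genotype labels: it read 0.51 on the array labelled Pla2g3-/- alone, against -6.31 on Pla2g3+/+ alone, and values from that genotype are given by its label.

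Most genes with a clear signal in mast cells alone kept their level. Above -3, 875 of 12622 genes (6.93%) were higher in coculture, 1044 (8.27%) were lower, and 10703 (84.8%) stayed within 2-fold, with a median difference of -0.01. At or below -3, 2025 of 9985 genes (20.3%) were higher and 654 (6.55%) lower. Above -3, 2 genes were at least 16-fold higher and 100 at least 16-fold lower, and at or below -3 these numbers were 248 and 10. The share of higher genes grew as the level alone fell, with 2.2% of 4442 genes above a level of 2, 11.8% of 4505 between -3 and 0, and 21.8% of 7185 at or below -5. The split uses the level alone, which is 1 side of the difference, so a dim gene has little room to be lower. A gene above background only in coculture could not be lower. Counts by class or level are therefore descriptions. Counts of the dim class also depended on background correction, and normexp correction left 551 genes higher and 52 lower.

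The fold of a dim gene depends on background correction, and a bound given as "at least" holds for the processed signal. Of 279 named genes past 2-fold, 102 moved by over 1.5 times with normexp, which adds an offset that compresses low signals, and 32 were then within 2-fold. Among those described here, Mrgprb1 was 42.3-fold, Steap1 50.1-fold, Mcpt1 3.09-fold and Egr3 2.8-fold higher with it. Prss34, P2ry14, Ptgs2, Aurkb, Abca1, Steap3 and Ear6 were within 2-fold, at -0.95, -0.97, 0.90, 0.96, -0.89, 0.99 and -0.92. With median scaling, 19 of the 279 were within 2-fold, among them Adora2a, S1pr2, Hs6st1, Ccl3, Dusp4, Irf1, Grn, Itgb2 and Gp9, and 12 when the other wild-type coculture was used, among them Prss34, S1pr2, Tph1, Fos, Phlda1, Rasa2, Cdk6 and Tagln. Against the array labelled Pla2g3-/- alone, 22 were within 2-fold, among them Tph1, Rasa2, Btg3, Abca1, Irf1, H2-Ab1, Itgb3, Steap3, Gp9, Ltf and Ear2.

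The limit of -3 cut through a continuous range of levels. With Rik, Gm and accession-only names left out, the 3 genes just above it were Btnl9, Stard6 and Steap3. They read -2.999, -2.997 and -2.997 alone, with differences of -1.605, -0.26 and 1.29. Just below the limit lay Ppp1r10 at -3.003 and Gdap1l1 at -3.002, with differences of 1.83 and 0.85. In all, 1320 genes lay within 0.5 of the limit. Scaling by the array median, with a median difference of -0.14 over all compared genes against 0.13 with the 75th percentile, gave 541 genes higher and 1673 lower above -3, so that 24.4% of the differing genes were higher, against 45.6% with the 75th percentile.

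**Figure D1:**
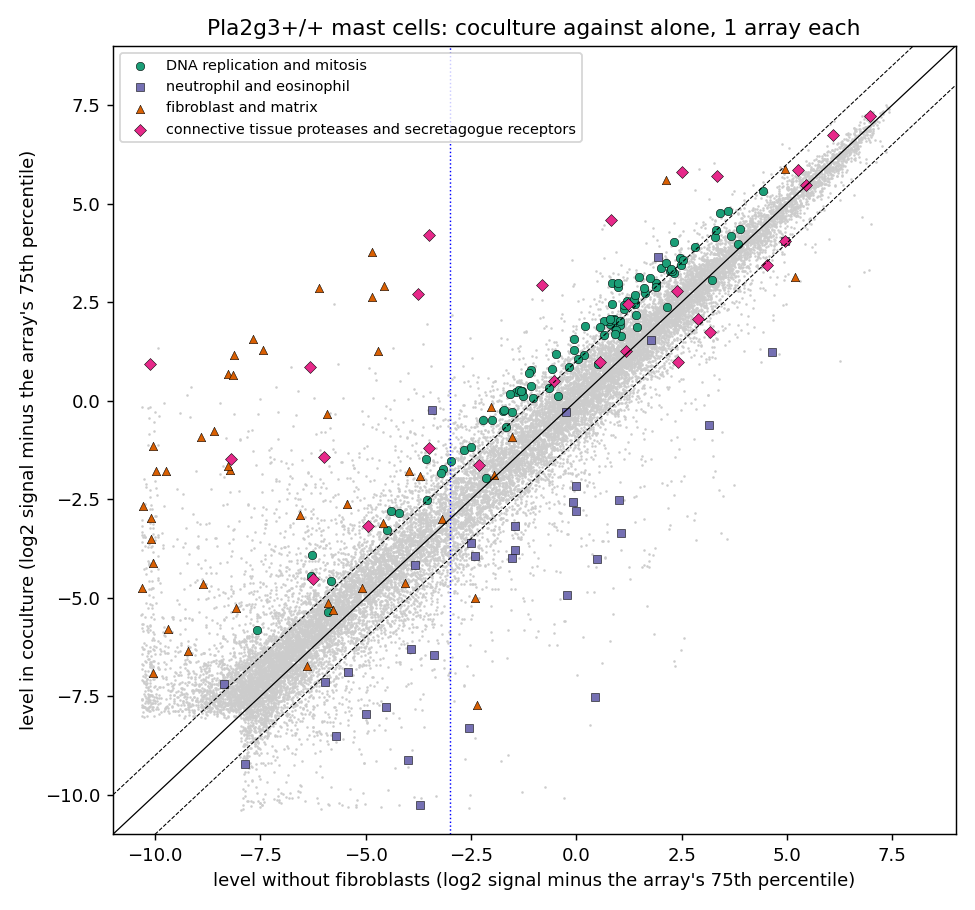
Level of each compared gene in the Pla2g3+/+ coculture (vertical axis) against its level alone (horizontal axis), both as log2 signal minus the 75th percentile of the array. Each point is a gene, the dashed lines mark 2-fold, and the dotted line marks -3. Replication and mitosis genes lie in a band above the diagonal, most fibroblast genes lie left of -3 and high, and most neutrophil and eosinophil genes lie below the diagonal.

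Among genes above -3, the 12 with the highest differences mixed cytoskeletal, signalling, protease and lipid genes. Marcksl1, a membrane-bound regulator of actin, read 2.17 in coculture and -2.96 alone, 35-fold higher. Trib2, a pseudokinase, read 1.58 in coculture and -2.53 alone, 17.3-fold higher. Tnf, the inflammatory cytokine that mast cells can release from stores, read 2.04 in coculture and -1.78 alone, 14.1-fold higher. These and the further 9 differences exceeded 0.29, the range of 95% of genes between the wild-type cocultures, more than 10 times. The 12 genes were picked for their size, and that range comes from 1 slide, so this is a description and no test. Dhrs3, which reduces retinal, read 4.46 in coculture and 0.66 alone, 13.9-fold higher. Klf10, a zinc finger factor induced by TGF-beta, read 4.36 in coculture and 0.62 alone, 13.4-fold higher. Tnfrsf12a, the receptor for the cytokine TWEAK, read 3.56 in coculture and -0.10 alone, 12.6-fold higher. Scpep1, a serine carboxypeptidase, was 12.3-fold, Slc4a11, a membrane transporter, 11.9-fold, lipoprotein lipase (Lpl) 11.7-fold and Pxdc1 11.3-fold higher. The remaining 2 were the proteases Cma2 and Tpsg1, described with the granule genes. Marcksl1 and Pxdc1 were close to the limit, at -2.96 and -2.91 alone.

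The lowest differences were larger than the highest ones, but many rest on a coculture signal near background, and their size and order depend on background correction. Dnah7b, an axonemal dynein heavy chain, read -6.73 in coculture and 2.33 alone, 534-fold lower. The cytochrome P450 genes Cyp4a12a and Cyp4a12b, which hydroxylate fatty acids, read -6.60 and -6.01 in coculture, against 2.31 and 2.56 alone, 479-fold and 378-fold lower. These paralogs have closely similar transcripts, and whether their probes bound both was not tested. Prg2, the eosinophil major basic protein, read -7.52 in coculture and 0.45 alone, 251-fold lower. Cd24a, a surface glycoprotein of immature blood cells, read -3.52 in coculture and 3.57 alone, 136-fold lower. With normexp, Dnah7b was 93.6-fold, Cyp4a12a 110-fold, Cyp4a12b 117-fold and Prg2 33.9-fold lower. Jaml, a junctional adhesion molecule of leukocytes, read -6.97 in coculture and 0.02 alone, 127-fold lower. Cacnb4, a calcium channel subunit, was 119-fold, Fam155a 117-fold, Pigz, a mannosyltransferase of the GPI anchor pathway, 111-fold, and Ahrr, the repressor of the aryl hydrocarbon receptor, 82.7-fold lower. Ahrr read -3.54 in coculture and 2.83 alone. Itih5, a hyaluronan-associated protein gene, read -5.99 in coculture and 0.16 alone, and Sult1a1, a sulfotransferase, read -3.03 in coculture and 2.80 alone.

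On the other array without fibroblasts, 11 of these 12 genes read between -0.20 and 3.59. Prg2 read -4.91 on the array labelled Pla2g3-/- alone, so that its high level was seen on 1 of the 2 arrays without fibroblasts. Dnah7b (2.76), Cyp4a12a (2.09), Pigz (3.59) and Ahrr (3.02) were bright there too. Over all 1044 lower genes above -3, 992 were within 2-fold between the arrays without fibroblasts, 48 were at least 2-fold lower under the Pla2g3-/- label and 4 higher.

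**Figure D2:**
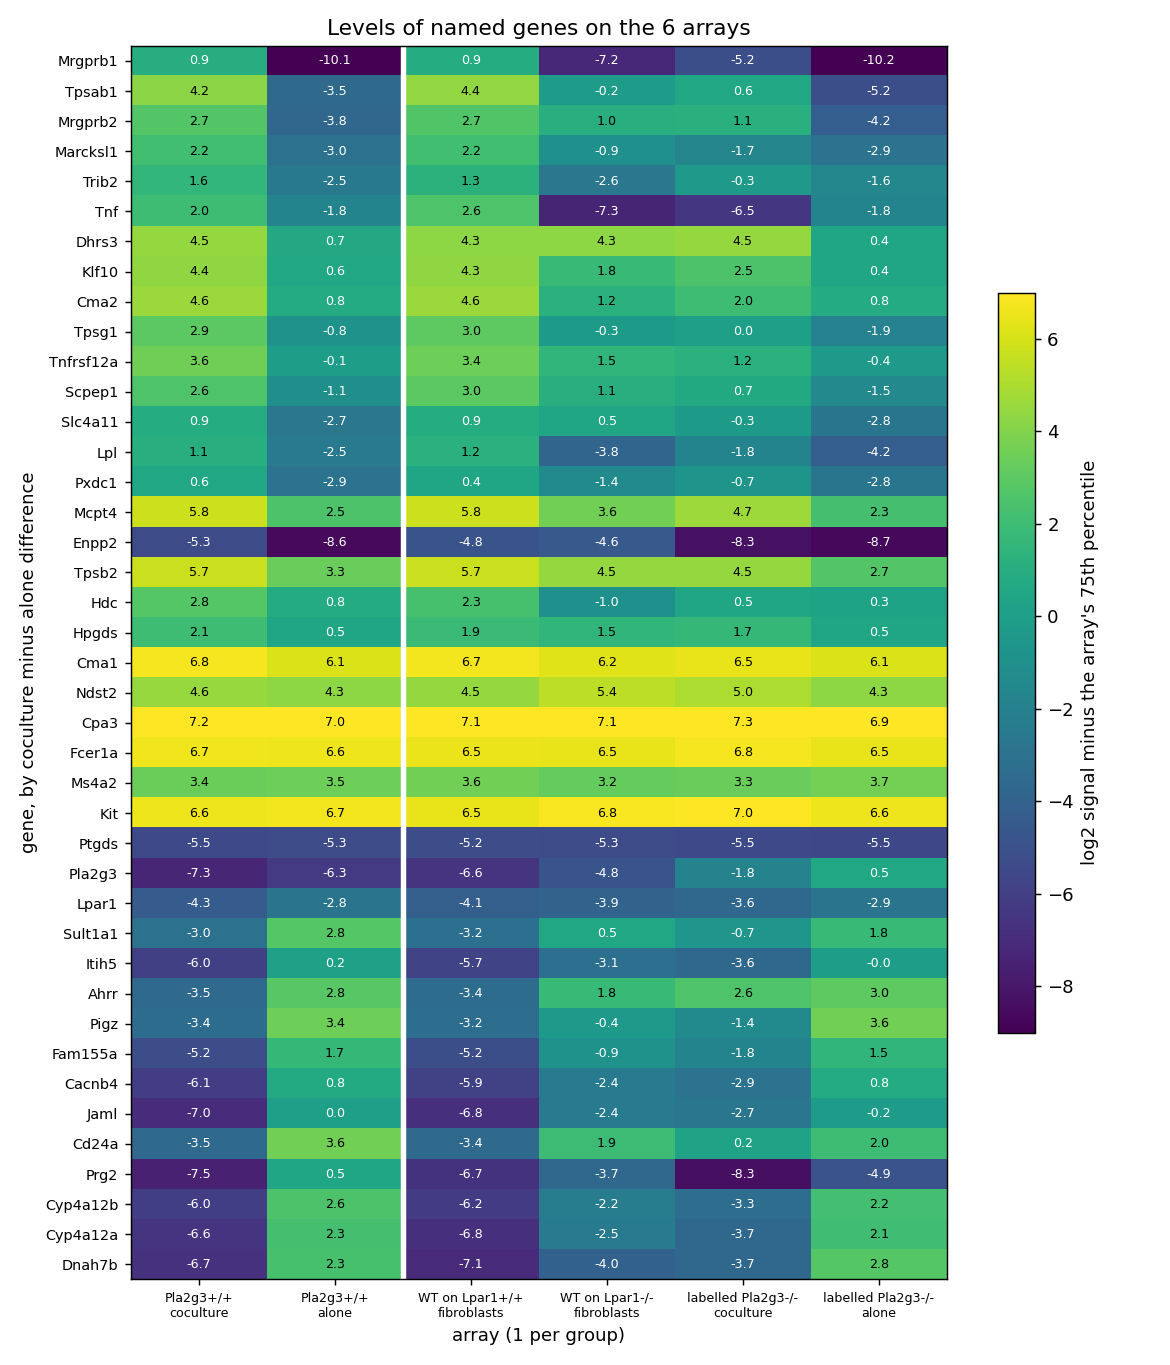
Levels, as log2 signal minus the 75th percentile of the array, of the fixed genes and of the 12 highest and 12 lowest genes above -3 alone on the 6 arrays, 1 array per group, sorted by the coculture minus alone difference. The Pla2g3+/+ coculture and Pla2g3+/+ alone are the columns left of the white line. The lowest rows are bright on both arrays without fibroblasts apart from Prg2, and dark in both wild-type cocultures on wild-type fibroblasts.

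Granule proteases of the connective tissue type were the list with the highest median difference among members above -3. Of the 7 members there, 4 were higher, 0 lower and 3 within 2-fold, with a median of 2.37 against -0.01 over all genes of the class. Here and below, list counts above -3 are to be read beside the shares over all genes of that class. These were 6.93% higher and 8.27% lower. Mcpt4, the chymase of connective tissue mast cells, read 5.79 in coculture and 2.51 alone, 9.68-fold higher. Tpsb2, tryptase beta 2, read 5.70 in coculture and 3.33 alone, 5.18-fold higher, and its 2 measured probes differed by 2.37 and 2.61. Cma2, a chymase paralog, read 4.58 in coculture and 0.83 alone, 13.4-fold higher. Tpsg1, the membrane-anchored tryptase gamma, read 2.94 in coculture and -0.81 alone, also 13.4-fold higher. Tpsab1, the eighth member, was at -3.50 alone and read 4.21 in coculture, 210-fold higher. The 3 members most abundant alone did not pass 2-fold. Carboxypeptidase Cpa3 read 7.21 in coculture and 6.96 alone, and Cma1 read 6.75 in coculture and 6.09 alone. Cathepsin G (Ctsg) read 4.06 in coculture and 4.96 alone. In this list the higher members read 3.33 or less alone, and those within 2-fold read 4.96 or more.

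Proteases of the mucosal and basophil types were mixed. Mcpt2 read 2.11 in coculture and -0.36 alone, 5.56-fold higher, and Mcpt1, the chymase of mucosal mast cells, read -2.85 in coculture and -7.17 alone, 20.1-fold higher from a dim level. Prss34, a protease of basophils and mucosal mast cells, read -3.95 in coculture and -2.77 alone, 2.26-fold lower. Granzyme B (Gzmb), at 6.77 in coculture and 6.08 alone, and the basophil protease Mcpt8, at 1.92 in coculture and 1.35 alone, stayed within 2-fold. Prss34 read -5.41 on the array labelled Pla2g3-/- alone, below its coculture level.

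Receptors of the Mrgpr family, through which cationic peptides and drugs can trigger connective tissue mast cells without IgE, were mostly dim in mast cells alone. Mrgprb2, the mouse receptor of this kind, read 2.70 in coculture and -3.75 alone, 87.4-fold higher. Mrgprx2 read 0.85 in coculture and -6.32 alone, 144-fold higher. Mrgprb1 read 0.94 in coculture and was not well above background alone, which made it at least 492-fold higher. Mrgprb3 read -1.47 in coculture, at least 92.9-fold higher. Mrgpra4, a further relative, was already at 0.57 alone, read 0.97 in coculture and stayed within 2-fold. All 8 secretagogue receptors at or below -3 that were compared were higher in coculture, against 20.3% of all genes of that class. Mrgprb1 and Mrgprb3 were compared only because of their coculture signal and could not be lower, so this count is a description. Above background on neither array were 2 of the 22 on the list.

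Receptors for adenosine, nucleotides and sphingosine 1-phosphate, which tune degranulation, did not move as a block. The whole secretagogue receptor list, which also holds Mrgpr receptors, had 12 members above -3. Of these, 2 were higher, 3 lower and 7 within 2-fold, with a median of 0.22. Adora2a, an adenosine receptor, read 2.45 in coculture and 1.23 alone, 2.33-fold higher, whereas its relative Adora2b read 1.75 in coculture and 3.17 alone, 2.69-fold lower. S1pr2 was 2.05-fold higher, and the nucleotide receptors P2ry1 and P2ry14 were 2.68-fold and 2.13-fold lower.

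Of 6 genes of amine synthesis and storage above -3, 2 were higher and 1 lower. Hdc, histidine decarboxylase, the enzyme that makes histamine, read 2.75 in coculture and 0.83 alone, 3.79-fold higher. Ddc, which decarboxylates the precursors of serotonin and dopamine, was 3.45-fold higher, though its 2 probes differed by 0.80 and 1.79. Tph1, the rate-limiting enzyme of serotonin synthesis, read 6.31 in coculture and 7.34 alone, 2.05-fold lower, but with the other wild-type coculture array its difference was -0.97. The vesicular transporter Slc18a2, which loads both amines into granules, read 5.74 in coculture and 5.77 alone.

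Enzymes that build heparin, the glycosaminoglycan that binds granule proteases, and chondroitin formed 1 list, in which 6 of 25 measured members above -3 were higher and 1 lower, with 18 within 2-fold and a median of 0.45. Xylt1, which starts the sugar chain on its core protein, read 1.39 in coculture and -1.34 alone, 6.62-fold higher, with its 2 probes at 1.02 and 2.73. The chain-building enzymes Extl3 and Ext1 were 3.01-fold and 2.91-fold higher, and the sulfotransferase Hs6st1 was 2.41-fold higher. Chsy1, which extends chondroitin chains, read 3.03 in coculture and 5.32 alone, 4.90-fold lower on the gene's brightest probe. Ndst2, the sulfotransferase needed for mast cell heparin, read 4.56 in coculture and 4.30 alone.

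Genes that define mast cells did not follow these differences. Kit read 6.62 in coculture and 6.72 alone. Fcer1a and Ms4a2, the alpha and beta chains of the IgE receptor, read 6.65 and 3.41 in coculture, against 6.58 and 3.47 alone. Il1rl1, the receptor for interleukin-33, differed by 0.17 and the lineage factor Mitf by 0.27. Of 26 core mast cell genes above -3, 3 were higher (Hdc, Rgs13 and Tpsb2), 3 were lower (Ltc4s, Csf2rb and Tph1) and 20 stayed within 2-fold, with a median of 0.09. Rgs13, an inhibitor of G protein signalling, read 0.93 in coculture and -1.23 alone, 4.45-fold higher.

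Signalling genes downstream of the IgE receptor were within 2-fold in 26 of 33 members above -3, and 5 were higher and 2 lower. The paired receptor Pilra and the adaptor Grap2 were 3.82-fold and 3.07-fold higher. Pik3cd, the phosphoinositide 3-kinase of blood cells, read 2.05 in coculture and 4.66 alone, 6.11-fold lower, and its 3 probes ran from -3.33 to -2.61. The kinases Syk and Lyn, which act first after receptor crosslinking, differed by 0.74 and 0.56.

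Among 21 cytokine receptor genes above -3, 5 were lower and 1 was higher. Il2ra, the alpha chain of the interleukin-2 receptor, read -4.86 in coculture and 0.26 alone, 34.8-fold lower. The decoy receptor Il1r2, Il4ra and Il18rap, a subunit of the interleukin-18 receptor, were 2.94-fold, 2.59-fold and 2.34-fold lower. Csf2rb, the shared beta chain of the interleukin-3 receptor, read 6.05 in coculture and 7.12 alone, 2.10-fold lower. Epor, the erythropoietin receptor, read 0.63 in coculture and -1.51 alone, 4.41-fold higher. Of 9 dim members, 8 were higher, against 20.3% of all dim genes, led by Osmr, the oncostatin M receptor, which read -0.17 in coculture, at least 228-fold higher, and Il1r1 (19.1-fold) and Tnfrsf1a (7.96-fold). Osmr was above background only in coculture and could not be lower, so the count of dim members is a description. Osmr, Il1r1 and Tnfrsf1a are also known in fibroblasts.

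Transcription factors of the blood lineages were more often lower than higher, at 8 and 3 of 32 members above -3, and their median was -0.45. Gfi1b, a repressor of the erythroid and megakaryocyte lineages, read -0.99 in coculture and 2.25 alone, 9.45-fold lower. Cebpe, a factor of granulocyte maturation, read -3.98 in coculture and -1.53 alone, 5.50-fold lower. It was at -4.07 on the array labelled Pla2g3-/- alone. Nfe2 and Hhex were each 2.98-fold lower. Maf read -0.02 in coculture and -2.41 alone, 5.24-fold higher, with both probes above 2. Hes1, a target of Notch, was 4.84-fold and Lmo2 2.43-fold higher. Gata1 and Gata2, which drive the mast cell program, differed by -0.64 and -0.57.

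Enzymes and receptors of the eicosanoids, the lipid mediators made from arachidonic acid, had 6 lower members and 1 higher among 16 above -3, and their median was -0.45. Hpgds, which makes prostaglandin D2 in mast cells, was the higher member, at 2.06 in coculture and 0.45 alone, 3.06-fold. Ltb4r1, the leukotriene B4 receptor, read -2.39 in coculture and 2.31 alone, 26-fold lower. Ptgs1, the constitutive cyclooxygenase, was 3.22-fold lower, and the prostaglandin E receptor Ptger4 2.85-fold lower. Ltc4s, leukotriene C4 synthase, read 1.92 in coculture and 3.17 alone, 2.39-fold lower, while 5-lipoxygenase (Alox5) read 6.57 in coculture and 6.73 alone. Ptgds, the lipocalin-type prostaglandin D synthase, was dim at -5.47 in coculture and -5.32 alone, and the receptor gene Ptgdr was above background on neither array. Ptgs2, the inducible cyclooxygenase, read -2.87 in coculture and -4.32 alone, 2.74-fold higher.

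Of 14 phospholipase A2 and lysophospholipid genes above -3, 2 were higher and 3 lower. Lpar6, a receptor for lysophosphatidic acid, read 2.91 in coculture and 6.48 alone, 11.9-fold lower, and its 2 probes ran from -3.73 to -3.57. Sgpl1, the lyase that degrades sphingosine 1-phosphate, read 4.08 in coculture and 1.92 alone, 4.46-fold higher. Lpar1 read -4.34 in coculture and -2.84 alone, close to the limit of -3, and was 2.83-fold lower. With normexp its difference was -1.01. Enpp2, which encodes the secreted enzyme autotaxin, read -5.27 in coculture and was not well above background alone, at least 6.68-fold higher on the processed signal, but with normexp background correction its difference was 0.54, within 2-fold. Pla2g3, the secreted phospholipase A2 of the study, read -7.31 in coculture and -6.31 alone. The lowest signals well above background were at -8.07 in coculture and -8.01 alone.

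Cytokine genes above -3 were higher in 6 and lower in 7 of 20. Next to Tnf, the TNF family members Tnfsf14 and Tnfsf9 were 6.36-fold and 5.43-fold higher, and Hbegf, a ligand of the epidermal growth factor receptor, 3.72-fold higher. The interleukin-1 gene Il1b read -5.83 in coculture and -1.63 alone, 18.3-fold lower. Lif and Osm, both of the interleukin-6 family, were 6.58-fold and 3.66-fold lower, and Il4 read -0.26 in coculture and 1.58 alone, 3.58-fold lower. Of 12 chemokine genes above -3, 5 were higher and 4 lower. The monocyte chemoattractant Ccl7 read 5.87 in coculture and 2.90 alone, 7.81-fold higher, and Ccl3 read 3.13 in coculture and 1.88 alone, 2.37-fold higher. The fractalkine receptor Cx3cr1 read 2.34 in coculture and 4.19 alone, 3.61-fold lower, with 3 probes between -1.96 and -1.80. Among chemokines that stromal cells make, all dim alone, Cxcl1 was at least 206-fold, Cxcl12 199-fold and Cxcl5 at least 194-fold higher.

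Immediate early transcription factors, which are induced within minutes of a growth or stress signal, were higher in 12 and lower in 1 of 24 members above -3, with a median of 1.02. Nr4a2 and Nr4a1, orphan nuclear receptors, read 2.55 and 4.56 in coculture, against -0.81 and 1.64 alone, 10.2-fold and 7.55-fold higher. Egr2, a zinc finger factor, read 2.92 in coculture and -0.09 alone, 8.07-fold higher. Fos read -0.99 in coculture and 0.41 alone, 2.65-fold lower, but with the other wild-type coculture array its difference was -0.56. Myc stayed within 2-fold at 1.95 in coculture and 2.15 alone. All 8 dim members of the list were higher, against 20.3% of all genes at or below -3, with Egr3 20.8-fold, Egr4 20.1-fold and Fosl1 16.8-fold.

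The ERK feedback list holds inhibitors that the ERK kinase pathway induces against itself, and also the factor Etv4. It had 4 higher and 2 lower members among 13, and its median was 0.70. The phosphatase genes Dusp2, Dusp16 and Dusp4 were 7.38-fold, 3.39-fold and 2.32-fold higher, and the factor Etv4 was 4.93-fold higher. Phlda1 and Rasa2 were 2.55-fold and 2.16-fold lower. Taken from the other wild-type coculture, their differences were within 2-fold, at -0.77 and -0.94. In the NF-kB pathway, 7 of 20 genes above -3 (35.0%) were higher, against 6.93% of all genes above -3, and 0 were lower. The list median was 0.81. Bcl3, a nuclear cofactor of NF-kB, read 0.48 in coculture and -2.35 alone, 7.13-fold higher. The subunits Nfkb2 and Relb were 6.16-fold and 6.12-fold higher, although the 3 probes of Relb ran from 0.63 to 2.78. Nfkbid read 4.00 in coculture and 1.66 alone, 5.05-fold higher.

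Genes of DNA replication and mitosis above -3 had positive differences in all members but 1. Of 39 replication genes above -3, 25 were higher, 0 lower and 14 within 2-fold, and every one of the 39 differences was positive, from 0.13 to 2.00, with a median of 1.23. Of 45 mitosis genes above -3, 36 were higher, 0 lower and 9 within 2-fold (median 1.19), and Pttg1 alone was negative at -0.16. Tk1, thymidine kinase, read 2.98 in coculture and 0.98 alone, 4.00-fold higher, but its 3 probes ran from 0.37 to 2.00. Cdt1, which licenses replication origins, read 2.88 in coculture and 0.99 alone, 3.70-fold higher. Anln, a scaffold of the contractile ring, read 2.99 in coculture and 0.84 alone, 4.42-fold higher. The mitotic kinase Melk was 3.53-fold, the separase gene Espl1 3.26-fold and the kinesin Kif20a 3.20-fold higher. Among the dim members, Cdc6 was 4.18-fold and the kinase Aurkb 5.18-fold higher.

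Regulators of the cell cycle were not uniform. Of 26 members above -3, 4 were higher and 4 lower. Gadd45b, a stress-induced gene, read 1.56 in coculture and -1.65 alone, 9.26-fold higher. Rbl1, a relative of the retinoblastoma protein, and the inhibitors Cdkn2a and Cdkn2c were 5.53-fold, 2.50-fold and 2.43-fold higher, and the 2 probes of Rbl1 ran from 0.44 to 2.47. Cdkn1b, the inhibitor p27, read 1.62 in coculture and 2.80 alone, 2.27-fold lower, and Btg3, Cdk6 and Sesn1 were 2.26-fold, 2.25-fold and 2.03-fold lower. Cyclin D1 (Ccnd1), which fibroblasts also express, read 1.34 in coculture and -4.36 alone, 51.7-fold higher.

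Promoters of the cell cycle genes are printed because the members moved together. The cell cycle homology region (TTTGAA) and an E2F-type site (TTTGGCGC) were searched on both strands in RefSeq promoters of build GRCm38.p6, from 250 bases before to 50 after the start, with 1 promoter for each of 27025 genes. TTTGAA stood in 28 of 41 mitosis promoters found (68.3%), against 18.1% of all promoters, and TTTGGCGC in 6 of 37 replication promoters (16.2%), against 0.5%. Among mitosis genes above -3, 21 of 26 with TTTGAA and 10 of 12 without it were higher. The 150 bases before the start are shown for Espl1 (chromosome 15, 102296143 to 102296292, plus strand), Cdk1 (chromosome 10, 69352913 to 69353062, minus strand), Kif11 (chromosome 19, 37376232 to 37376381, plus strand) and Mcm5 (chromosome 8, 75109359 to 75109508, plus strand). Capitals mark TTTGAA or its complement in the first 3 and the complement of TTTGGCGC in Mcm5. The last 3 genes were picked for their motifs after their values were seen.
Espl1: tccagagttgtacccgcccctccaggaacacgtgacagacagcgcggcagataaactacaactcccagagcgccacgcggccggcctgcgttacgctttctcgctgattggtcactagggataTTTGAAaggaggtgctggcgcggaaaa
Cdk1: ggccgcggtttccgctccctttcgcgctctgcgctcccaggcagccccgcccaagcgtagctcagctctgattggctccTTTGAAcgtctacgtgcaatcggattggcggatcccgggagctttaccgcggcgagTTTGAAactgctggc
Kif11: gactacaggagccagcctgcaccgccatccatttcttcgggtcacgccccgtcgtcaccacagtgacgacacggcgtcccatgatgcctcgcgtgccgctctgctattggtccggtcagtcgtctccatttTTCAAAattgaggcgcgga
Mcm5: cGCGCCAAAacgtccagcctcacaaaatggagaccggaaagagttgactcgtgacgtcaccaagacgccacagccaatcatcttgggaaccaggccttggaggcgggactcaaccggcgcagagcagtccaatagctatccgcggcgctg
The kinase Cdk1, which drives entry into mitosis, read 2.08 in coculture and 0.89 alone, with 3 probes that ran from -0.04 to 2.17. The spindle motor Kif11 read 0.11 in coculture and -1.27 alone. Mcm5, a subunit of the replicative helicase, read 2.54 in coculture and 1.21 alone. A match of these letters is a description and no evidence of binding.

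Fibroblast markers were higher in the coculture together with the cell cycle genes. The summed level of 16 fibroblast markers was 36.4 in coculture and 0.553 alone, in multiples of the 75th percentile. The median level of the 39 replication genes was 2.01 in the Pla2g3+/+ coculture and 0.94 in Pla2g3+/+ cells alone. With Lpar1+/+ fibroblasts the marker sum and this median were 37.6 and 1.83, and with Lpar1-/- fibroblasts 35 and 0.02. In the coculture labelled Pla2g3-/- they were 15.8 and 0.24, and alone under that label 0.183 and 1.05. The Lpar1-/- fibroblasts are another clone, and the part of fibroblast RNA in the cell cycle values was not tested.

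Ribosome biogenesis genes had a median of -0.48, with 0 higher, 3 lower and 33 within 2-fold of 36, and the lower share of 8.3% was near the 8.27% of all genes above -3. In amino acid supply and the unfolded protein response, 8 of 34 genes were lower and 0 higher, and the median was -0.56. Cth, which makes cysteine, read -2.41 in coculture and 1.41 alone, 14.1-fold lower. Chac1, which degrades glutathione, was 5.66-fold, Ddit4, an inhibitor of mTORC1, 3.74-fold, and the arginine transporter Slc7a3 3.73-fold lower.

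Of 33 genes of cholesterol and fatty acid synthesis, 1 was higher and 32 stayed within 2-fold, with a median of 0.41. The higher one, the fatty acid elongase Elovl6, read 1.49 in coculture and -0.53 alone, 4.05-fold. The efflux transporters Abcg1 and Abca1 were 2.89-fold and 2.09-fold lower, and the lipid droplet gene Plin2 2.81-fold higher. All 29 genes of the mitochondrial respiratory chain above -3 stayed within 2-fold, from -0.41 to 0.66 (median 0.03). Of 27 genes of hypoxia and glycolysis above -3, 3 were higher (11.1%) and 2 lower (7.4%), near the 6.93% and 8.27% of all genes above -3. Ndrg1, which hypoxia is known to induce, read 6.03 in coculture and 3.26 alone, 6.85-fold higher, and P4ha2 and the glucose transporter Slc2a3 were 2.72-fold and 2.71-fold higher. The glycolytic enzyme Aldoc and the mitophagy receptor Bnip3 were 2.17-fold and 2.05-fold lower.

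Interferon-stimulated genes, which limit virus growth, were lower in 12 and higher in 1 of 28 above -3, with a median of -0.93. Mx1 read -5.42 in coculture and -2.94 alone, 5.58-fold lower. Ifitm3 read 1.71 in coculture and 4.08 alone, 5.15-fold lower, and Rtp4 and Irf7 were 4.41-fold and 3.09-fold lower. Irf1 read 2.08 in coculture and 0.94 alone, 2.20-fold higher. An interferon response motif, GAAANNGAA, stood in 17 of 28 list promoters found (60.7%), against 8.6% of all promoters. Of those above -3, 3 of 12 with it and 5 of 9 without it were lower. In antigen presentation, 2 of 17 genes above -3 (11.8%) were lower, near the 8.27% of all genes above -3, and 0 were higher. The class II genes H2-Eb1, at -5.01 in coculture and -1.26 alone, and H2-Ab1, at -0.14 in coculture and 1.20 alone, were 13.4-fold and 2.53-fold lower.

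Among 32 lysosomal genes above -3, 4 were higher (12.5%, against 6.93% of all genes above -3) and 0 lower, and the median was 0.46. The proteases cathepsin L (Ctsl) and legumain (Lgmn) were 7.92-fold and 4.58-fold higher, and Scarb2, a lysosomal membrane protein, and progranulin (Grn) 3.84-fold and 2.36-fold higher. Of 30 exocytosis genes, 4 were higher and 1 lower. The fusion protein Stx11 read 0.53 in coculture and -1.36 alone, 3.70-fold higher. Mlph and Sytl2, which link granules to motors and membranes, were 3.44-fold and 3.27-fold higher. Syt9, a calcium sensor, was 2.23-fold lower.

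Of 22 integrin and adhesion genes above -3, 6 were higher and 4 lower. Itga4 read 0.32 in coculture and -2.34 alone, 6.34-fold higher, though its 2 probes ran from 0.76 to 2.66. Cd44, the hyaluronan receptor, was 2.92-fold higher, with 4 probes between 1.12 and 1.59, and Itga5 and Itgb2 were 2.76-fold and 2.41-fold higher. Itgb7, a partner of Itga4 in gut homing, read 3.22 in coculture and 5.03 alone, 3.52-fold lower, and Cdh2 and Itgb3 were 3.08-fold and 2.23-fold lower. Of 12 genes of the BCL-2 family, 2 were lower and 0 higher. Bmf, which promotes cell death, read -3.39 in coculture and 0.31 alone, 13-fold lower, and Bcl2, which opposes it, read 1.79 in coculture and 3.90 alone, 4.31-fold lower. Of 12 targets of TGF-beta, Notch and Wnt above -3, 2 were higher and 0 lower, with a median of 0.15. Among 13 iron genes, the reductase Steap3 was higher, and Lcn2 and Trf were 4.43-fold and 2.87-fold lower.

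**Figure D3:**
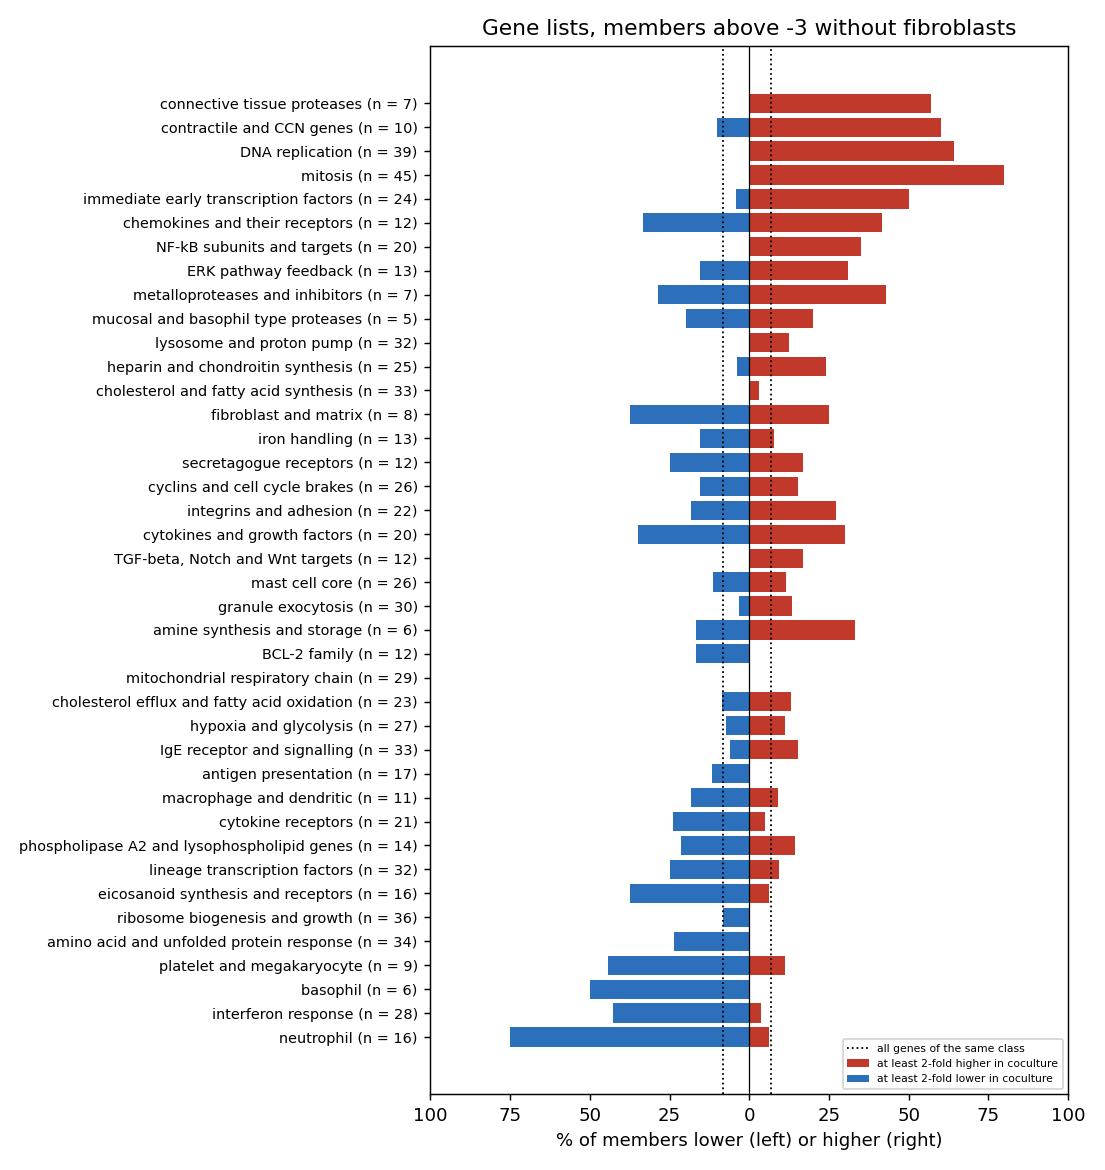
Share of the members of each gene list, among members above -3 alone, that were at least 2-fold higher (right) or lower (left) in the Pla2g3+/+ coculture than alone, for lists with at least 5 such members, sorted by median difference. Dotted lines mark the shares over all genes above -3, 6.93% higher and 8.27% lower. Mitosis and DNA replication have members on the higher side and none lower, and neutrophil and interferon genes have most differing members on the lower side.

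Of the 10 highest genes at or below -3, 8 encode collagens or other proteins of the matrix and its folding, and the remaining ones are Mrgprb1, described with the receptors, and Steap1. Of 52 listed fibroblast and matrix genes, 39 compared members were at or below -3 alone, and 5 were above background on neither array. Of the 39, 33 were higher and 0 lower, against 20.3% and 6.55% of all genes at or below -3. Genes this dim alone had little room to be lower, and those above background only in coculture had none. Col1a1 and Col1a2, the chains of collagen I, read 1.56 and 2.87 in coculture, against -7.67 and -6.11 alone, 601-fold and 505-fold higher. With normexp, Col1a1 was 51.8-fold higher and Col1a2 differed by 6.66 on the log2 scale. Fbln2, a matrix protein, and Col3a1 and Col6a1 were not well above background alone, and their differences were at least 573-fold, 408-fold and 403-fold. Sparc read 3.77 in coculture and -4.84 alone, 393-fold higher on the brighter of 2 probes, the other of which differed by 0.29. Serpinh1 and Fkbp10, which fold collagen, were 421-fold and at least 328-fold higher. Steap1 headed the class at 1.33 in coculture and at least 646-fold higher. A bulk RNA cannot tell transcripts of carried-over fibroblasts from transcripts of mast cells, nor fewer cells of a type from less RNA per cell.

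Matrix and contractile genes that were already above -3 alone did not all follow. S100a4, also known in leukocytes, read 5.61 in coculture and 2.13 alone, 11.2-fold higher, and Col6a3 was 3.68-fold higher. Thy1 read -7.71 in coculture, near the lowest signals well above background, and -2.36 alone, 40.7-fold lower. With normexp Thy1 was 6.14-fold lower. It read -4.76 on the array labelled Pla2g3-/- alone and 0.76 with Lpar1-/- fibroblasts. Igfbp4 and Igfbp5 were 6.01-fold and 4.18-fold lower. Of 10 contractile and CCN genes above -3, 6 were higher, with Tpm4, a tropomyosin, at 7.51-fold, Filip1l at 4.44-fold and Tagln, transgelin, at 3.18-fold. Ccn3 was 6.37-fold lower. The urokinase receptor Plaur and urokinase (Plau) were 8.07-fold and 3.68-fold higher, whereas Timp3, an inhibitor of metalloproteases, read -3.88 in coculture and 1.72 alone, 48.2-fold lower. Timp1 read -0.30 in coculture and -7.08 alone, 110-fold higher.

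Most neutrophil and eosinophil genes above -3 were lower in coculture. Of 16 neutrophil genes above -3, 12 were lower, 1 higher and 3 within 2-fold, with a median of -2.48. Ngp and Ltf, proteins of neutrophil granules, read -4.92 and -4.02 in coculture, against -0.22 and 0.49 alone, 26-fold and 22.8-fold lower. Camp was 21.3-fold and S100a8 13.6-fold lower. All 4 eosinophil genes above -3 were lower: next to Prg2, Ear2, an eosinophil ribonuclease, was not well above background in coculture and was at least 45.8-fold lower, and Siglecf and Ear6 were 2.92-fold and 2.16-fold lower. Il5ra, the interleukin-5 receptor chain on the eosinophil list, was dim alone and went the other way, at -0.24 in coculture and -3.43 alone, 9.11-fold higher. The platelet chemokine genes Ppbp and Pf4 were 23.8-fold and 9.77-fold lower, and Gp9 2.17-fold higher. The basophil list had 3 of 6 members lower, led by Ifitm1 at 3.32 in coculture and 6.94 alone, 12.3-fold lower. Globin transcripts were also lower, with Hba-a1 at -3.56 in coculture and 0.76 alone, 19.9-fold, and Hbb-b2 at least 50.8-fold. Of 11 macrophage and dendritic genes, Cd68 was 5.07-fold higher and Adgre1, which encodes F4/80, 5.44-fold lower.

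The array used for mast cells alone stood apart in the granulocyte genes. The summed level of 14 neutrophil markers was 7.62 in the Pla2g3+/+ coculture and 47.1 in Pla2g3+/+ cells alone, and it was 6.55 on the array labelled Pla2g3-/- alone. The 9 eosinophil markers summed to 1.07 in coculture and 2.24 alone, and to 0.388 under that label. Set against the array labelled Pla2g3-/- alone, the median of the neutrophil list turned to 0.59, and Camp, S100a8, Lcn2, Ppbp, Pf4, Ear6, Cebpe and Prss34 were no longer lower. Ngp and Ltf read -3.87 and -3.16 under that label, between their levels in coculture and in Pla2g3+/+ cells alone. The part of granulocyte RNA in the lower genes was not tested. Of the globin genes, Hba-a1 read 0.95 on the array labelled Pla2g3-/- alone, above its coculture level. Hbb-b2 read -6.34 on that array and -2.40 in Pla2g3+/+ cells alone, so its higher level was seen on 1 of these arrays. The 9 mast cell markers summed to 602 in coculture and 528 alone, and all 9 were above background on both arrays. Fibroblast markers Postn and Lum were above background on neither array, and Dcn and Pdgfra were above it in coculture and not alone.

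**Figure D4:**
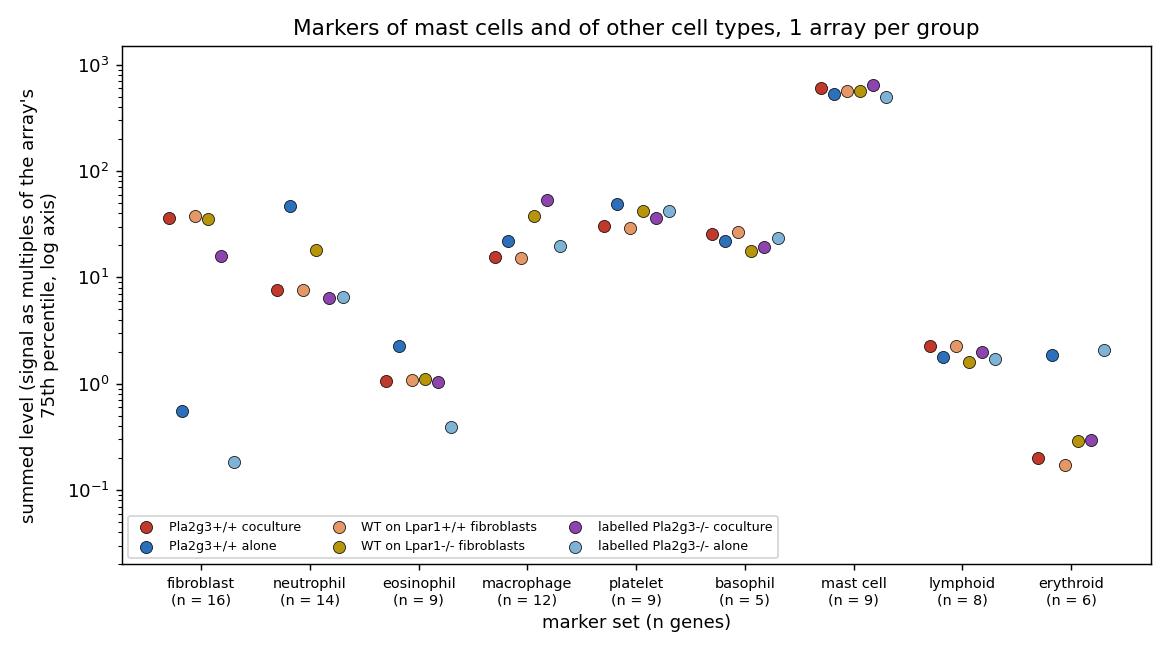
Summed level of marker genes of 9 cell types on each of the 6 arrays, in multiples of the 75th percentile of the array, on a log axis, with 1 point per array and the coculture left of the cells alone within each genotype. Mast cell markers sum to 501 to 637 on every array. Fibroblast markers are at 15.8 or more in the cocultures and at 0.553 or less alone, and neutrophil markers are highest on Pla2g3+/+ alone.

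A pair that shares no array with this comparison was available on the same slides: wild-type mast cells on Lpar1+/+ fibroblasts minus the array labelled Pla2g3-/- alone. This setting was added after the data were seen. It gave 787 genes higher and 1011 lower above -3. Of the 875 higher genes of the Pla2g3+/+ comparison, 649 were shared, which is 74.2% of that list and 82.5% of the other, and 0 went the opposite way. Of the 1044 lower genes, 844 were shared, 80.8% of that list and 83.5% of the other, and 5 went the opposite way. Both pairs lie across the same slides. Some genes had at least 2 probes measured on both arrays. Of 282 such higher genes above -3, 261 had all probes positive and 154 all past 2-fold. Of 307 such lower genes, 267 had all probes negative and 155 all past 2-fold. The brightest probe, which made the call, is in general among them. All probes read the same RNAs on the same arrays, so these counts bear on neither culture nor slide.

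The coculture on Lpar1+/+ fibroblasts was close to the Pla2g3+/+ coculture for Tpsab1, at 4.39, and the remaining cocultures read lower. Tpsab1 read 4.21 in the Pla2g3+/+ coculture, -0.17 with Lpar1-/- fibroblasts and 0.61 in the coculture labelled Pla2g3-/-. Cma2 read 4.58, 1.20 and 2.02 on the same arrays. Mcpt1, by contrast, read -2.85 in the Pla2g3+/+ coculture, 1.53 with Lpar1-/- fibroblasts and 1.02 in the coculture labelled Pla2g3-/-, and Mcpt2 read 2.11, 4.07 and 3.78. Hdc read 2.75, -0.97 and 0.46. Dhrs3 read 4.46, 4.31 and 4.48. No replicate bears on these differences between cocultures.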

How the data were processed

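Total RNA was labelled with Cy3 and hybridised to Agilent whole-genome arrays, 1 per group, each from a pool of 3 samples per the labels. Spot intensity was read by the authors in Feature Extraction (version 12.1.1.1 in the file headers), with background subtraction and a surrogate for dim spots, so that low levels rest partly on the surrogate. A linear signal, uncentred, is in the authors' deposited value table and equalled processed intensity over 1 constant per array. Its column medians were 0.0439 in coculture and 0.0357 alone.

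Here log2 intensity minus the 75th percentile of 43020 noncontrol spots was used. Outlier spots were dropped, spots of a probe averaged, and each gene was represented by its brightest probe across the 6 arrays. No spot was saturated. RefSeq GRCm38.p6 accessions named 33476 spots, symbols 2686 and synonyms 12, and 6846 kept the file's name. A probe not well above background on 1 array gave a bound against the higher of that array's lowest such signal and its own value. For 9 genes the brightest probe was dim on both, and they were left out. The error model of the scanner software gave a median error of 0.20 (log2) for a named gene's difference, for the spot and not the culture. The number of arrays limits the precision.

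Named genes were 18 fixed genes, the 12 highest and 12 lowest above -3 measured on both arrays, the 10 highest at or below it, up to 4 higher, 4 lower and 3 dim members of each of 43 lists, and members within 2-fold as examples. Rik, Gm and accession-only names were left out. Members and lists were chosen with earlier results of these data known. The calculation was tested on simulated data. Alternatives were 12 planned settings and 1 added. Python 3.11.15, pandas 2.3.3, R 4.3.3 and limma 3.58.1 (normexp and quantile) were used. A few genes that the naming rule picks are not reported here.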

Additional observations from a re-analysis of the deposited data

Results flagged for a closer look

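The median differences of 4 gene lists were positive in the Pla2g3+/+ mast cells and negative in those labelled Pla2g3-/-, each set against its own array without fibroblasts. Lists were taken where both medians lay at least 0.29 from 0, which is a limit of size and no test. The difference between the effects was not tested, since each group has 1 array. ERK feedback genes had a median of 0.70 in Pla2g3+/+ cells and -2.61 under the Pla2g3-/- label, a gap of 3.30 over 13 genes. Mitosis genes had 1.19 and -1.10, a gap of 2.29 over 45 genes. DNA replication genes had 1.23 and -0.71, a gap of 1.94 over 39 genes. Cholesterol and fatty acid synthesis genes had 0.41 and -1.18, a gap of 1.59 over 33 genes.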

How the results depend on the processing

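No paired analysis was possible because each group has 1 array. Counts are given as higher and lower. Above -3, median scaling gave 541 and 1673, in place of 875 and 1044, and a 4-fold limit 148 and 324. At or below -3, in place of 2025 and 654, normexp gave 551 and 52, quantile normalization 1305 and 1157, and a 4-fold limit 785 and 173, and no filter on dim probes gave 1149 lower. Median scaling turned the list medians of secretagogue receptors (-0.0528), cytokines (-0.12), cyclins and brakes (-0.0877), integrins (-0.13), iron handling (-0.0389) and TGF-beta, Notch and Wnt targets (-0.12). The mean of probes turned cytokines (-0.16), and a level of -4 turned chemokines (-0.25). The causes were not tested beyond the construction of each setting.

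With the array labelled Pla2g3-/- alone as the array without fibroblasts, and in the array-disjoint pair (wild-type mast cells on Lpar1+/+ fibroblasts minus that array, a setting added after the data were seen), the neutrophil median was 0.59 and 0.71. In the same order, the differences were 1.46 and 1.78 for Prss34, 0.0848 and 0.73 for Cebpe, 0.71 and 1.29 for Lcn2, 0.47 and 0.44 for Camp, 0.87 and 1.07 for S100a8, 1.76 and 1.51 for Ear6, 0.88 and 0.80 for Ppbp, and 1.51 and 1.43 for Pf4. All other counts stayed within 1.5 times under the settings run. Signal over background limits the dim class, where 2158 of 9985 differences are bounds. Of 279 named genes past 2-fold, 27 were within 2-fold in the array-disjoint pair, 9 with quantile normalization and 6 with the mean of probes.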
